A study of Rattus norvegicus with 26 samples.

Results

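Chemokines and their receptors were described across primary cell cultures of the rat brain. The members were all genes whose symbol in the annotation of the array starts with Ccl, Cxcl, Xcl, Cx3cl, Ccr, Cxcr, Cx3cr, Xcr or Ackr and a digit, with the exception of Ccrn4l, which is no receptor. They came to 45 of the 14217 genes with a symbol of their own: 29 ligands, 12 receptors and 4 atypical receptors, on 58 probe sets. Each gene was represented by its probe set with the highest mean over all 26 arrays, and no difference between cultures entered the choice. The cells were microglial, astrocytic, oligodendrocytic and neuronal primary cultures from the cerebral cortex of rat pups at postnatal day 1, each on 4 arrays. The other 10 arrays carried mixtures of these RNAs, each made up with 2 sets of parent cultures. NA1, NA2 and NA3 held 0.25, 0.5 and 0.75 neuronal RNA and astrocytic RNA for the rest. In NAO the shares were 0.5 neuronal, 0.25 astrocytic and 0.25 oligodendrocytic. In NAOM they were 0.5 neuronal, 0.2 astrocytic, 0.2 oligodendrocytic and 0.1 microglial. No treatment is named for any group, and the number of pups behind a culture and any purification of the cells are not given in the sources used here.

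Chemokines are small secreted proteins that direct the movement of cells through receptors coupled to inhibitory G proteins. Atypical receptors bind the same ligands without that coupling and take them up, hold them or carry them across cells. In the brain, neurons are known for the membrane-tethered ligand Cx3cl1, which is read by Cx3cr1 on microglia, and Cxcl12 steers migrating neurons and precursors through Cxcr4 and the scavenger Ackr3. A further set, among them Ccl2, Ccl3 and Cxcl1, is made by activated glia and macrophages and draws blood leukocytes.

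Values are log2 expression levels, and differences are on the same scale with their standard error. A gene was called where the limma adjusted p over 31042 probe sets was under 0.05 and, between cultures, the log2 difference was at least 1. Array medians lay between 5.26 and 5.31 in the cultures, and no detection flags were used here. Where the lower of the groups compared averaged below every array median, background compresses the difference and the fold is given as at least that size, a bound that leaves out the standard error. Levels of different probe sets were not compared with each other, and the number of arrays limits the precision.

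Marker lists were checked first. The 10 macrophage markers averaged 11.16 to 11.73 on the microglial arrays, 4.57 to 6.38 on the astrocytic, 8.85 to 9.90 on the oligodendrocytic and 4.57 to 4.77 on the neuronal arrays, so the oligodendrocyte cultures carried macrophage transcripts. Among the astrocyte cultures, replicates 2 and 3 had 6.23 and 6.38, and replicates 1 and 4 had 4.75 and 4.57. The 6 oligodendrocyte markers measured averaged 9.61 to 11.70 in oligodendrocyte cultures and 7.42 to 9.18 in microglial cultures. Astrocyte markers averaged 10.59 to 11.80 in astrocyte cultures and 7.38 to 9.78 in neuronal cultures, and fibroblast markers were at 8.47 in astrocyte replicate 4 and 6.42 to 6.53 in the other astrocyte arrays. Of the 5 fibroblast markers, the collagen genes Col1a2 and Col3a1 set replicate 4 apart, at 13.11 and 12.56. The other astrocyte arrays had 7.92 to 8.24 and 7.57 to 7.66. Ogn was level, at 9.96 to 10.14 on all 4 arrays, and Dcn and Lum lay below the array median on every culture array. Pericyte and smooth muscle markers averaged 7.48 to 8.43 in astrocyte cultures, highest in replicate 4. They averaged 4.85 to 5.43 in microglial, 5.25 to 6.18 in oligodendrocytic and 5.46 to 6.02 in neuronal cultures. Of these 5 markers, 3 were called higher in astrocytes than in the mean of the rest. The markers of endothelium and of T and NK cells lay below the array median on every culture array. In such mixed cultures fewer cells of a type and less RNA per cell cannot be told apart. The description of microglial replicate 4 reads as a mixture, whereas its title and cell type name a microglial culture. Its neuron markers averaged 5.35, the lowest of the microglial arrays, against 9.45 to 10.74 on the 10 mixture arrays, which all held neuronal RNA. Its macrophage markers were the highest of all arrays (11.73). Replicate 4 was kept, and calls that ended without it are named with the genes.

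Of the 45 members, 20 were called in at least 1 of the 6 pairwise comparisons of cultures, a share near the 38.9% of all probe sets. These were 16 of 29 ligands, 2 of 12 receptors (Cx3cr1 and Cxcr4) and 2 of 4 atypical receptors (Ackr1 and Ackr3). On all 16 culture arrays, 20 of the 45 genes lay below the array median, 9 of them ligands, 9 receptors and 2 atypical receptors. Higher in 1 culture than in each of the other 3 were Ccl9, Cx3cr1 and Cxcl16 in microglia (3 of 45, against 2.63% of probe sets), Ackr3 and Cxcl12 in astrocytes (2, against 4.21%) and Ackr1, Ccl27 and Cx3cl1 in neurons (3, against 7.49%). No member was higher in oligodendrocyte cultures than in each other culture (0 in limma, against 1.47%). Against the mean of the rest, 13 were higher there at an unadjusted p under 0.05. That test is looser, and without a share of all probe sets at this threshold the 13 cannot be weighed. That 0 depended on single arrays: it became 1 without microglial replicate 4 (Ccl4), astrocytic replicate 3 (Cxcl1), oligodendrocytic replicate 3 or neuronal replicate 3 or 4 (each Ccl20), 2 without oligodendrocytic replicate 1 (Ccl4 and Cxcl2) and 3 without oligodendrocytic replicate 2 (Ccl4, Cxcl1 and Cxcl3).

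Against the mean of the other 3 cultures, microglia had 7 members higher (6.30% of probe sets) and 8 lower (8.95%), and astrocytes 6 higher (8.14%) and 2 lower (7.55%). Oligodendrocyte cultures had 9 higher (5.40%) and 4 lower (4.61%), all 9 of them ligands, and neurons 4 higher (11.8%) and 10 lower (10.7%). The median difference over the 45 members was 0.08 for microglia, -0.06 for astrocytes, -0.01 for oligodendrocytes and -0.18 for neurons, beside 0.06, -0.04, -0.04 and -0.07 over all probe sets. The 29 ligands alone had a median of 0.53 in oligodendrocyte cultures and -0.45 in neurons. Between single cultures, microglia minus astrocytes had 6 members higher (7.05%) and 7 lower (9.13%), microglia minus neurons 10 higher (11.6%) and 7 lower (14.1%), and astrocytes minus oligodendrocyte cultures 4 higher (8.04%) and 4 lower (7.85%). Astrocytes minus neurons had 9 higher (12.0%) and 3 lower (12.0%), and oligodendrocyte cultures minus neurons 11 higher (10.6%) and 4 lower (11.0%).

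**Figure D1:**
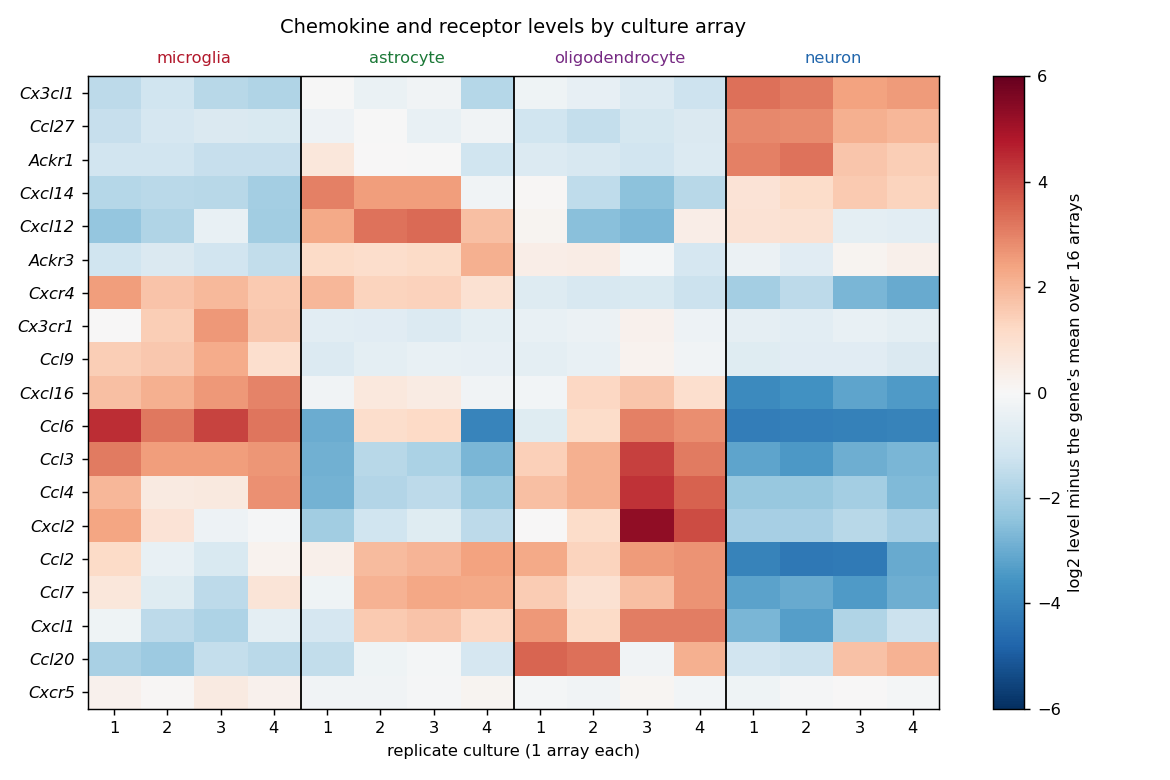
Heat map of the 19 members described by array, as the log2 level minus the mean of the gene over the 16 culture arrays. Rows are genes, columns are replicate cultures in 4 blocks, and red and blue mark levels above and below the mean of the gene; Cx3cl1, Ccl27 and Ackr1 stand out in the neuronal block and Cx3cr1 and Ccl9 in the microglial block, while Ccl6 differs between the astrocyte arrays.

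Neuronal cultures were the source of Cx3cl1, also called fractalkine, which is anchored in the membrane by a mucin-like stalk. Cx3cl1 had 10.15, 9.94, 9.24 and 9.41 in neuronal cultures, against 5.26, 5.66, 5.18 and 5.05 in microglial, 6.80, 6.44, 6.64 and 5.13 in astrocytic and 6.57, 6.37, 6.01 and 5.58 in oligodendrocytic cultures. Every neuronal array exceeded every other array by over 2 log2 units. Cx3cl1 was 13.9-fold higher in neurons than in the mean of the rest (3.79 ± 0.27, limma adjusted p = 8.52e-09), with differences of -4.40 ± 0.33 for microglia minus neurons, -3.43 ± 0.33 for astrocytes minus neurons and -3.55 ± 0.33 for oligodendrocytes minus neurons. Its neighbours on the chromosome in the GRCr8 annotation, Ccl17 and Ccl22, which draw T helper cells, showed no such pattern: Ccl17 averaged 5.08 ± 0.08 in neurons and 4.93 to 4.99 in the other cultures, and Ccl22 averaged 4.04 ± 0.07 in neurons and 4.10 to 4.65 in the other cultures (SD, n = 4).

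The receptor Cx3cr1, which keeps microglia in contact with neurons, had the opposite place. It had 5.01, 6.42, 7.55 and 6.58 in microglia, against 4.33, 4.27, 4.16 and 4.39 in astrocytes, 4.50, 4.61, 5.23 and 4.66 in oligodendrocyte cultures and 4.41, 4.34, 4.52 and 4.40 in neurons. Microglial replicates 2 to 4 exceeded all other arrays, and replicate 1 lay below oligodendrocytic replicate 3. The difference was 1.91 ± 0.29 for microglia minus the mean of the rest (at least 3.75-fold, adjusted p = 7.23e-05) and 1.64 ± 0.36 for microglia minus oligodendrocyte cultures (adjusted p = 0.00296). The spread of Cx3cr1 among microglial arrays (SD 1.05) was the widest of any culture, with SD of 0.10, 0.33 and 0.08 in astrocytes, oligodendrocytes and neurons.

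Ccl27, a ligand of Ccr10 known for drawing T cells to the skin, was also neuronal. It had 8.80, 8.71, 8.01 and 7.87 in neurons, against 4.50, 4.88, 5.02 and 4.98 in microglia, 5.59, 5.88, 5.43 and 5.67 in astrocytes and 4.70, 4.45, 4.85 and 5.02 in oligodendrocyte cultures. It was at least 9.63-fold higher in neurons than in the mean of the rest (3.27 ± 0.17, adjusted p = 2.26e-10). The gene overlaps the end of Il11ra1, an interleukin receptor gene, in GRCr8, and Il11ra1 ran differently, with 4.68 in neurons, 5.24 in microglia, 8.36 in astrocytes and 4.32 in oligodendrocyte cultures. Its receptor Ccr10 was below the median on all 16 arrays, with culture means from 4.46 to 4.55.

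Ackr1 is the Duffy antigen receptor, known from red cells and the endothelium of venules, where it binds inflammatory chemokines without signalling. It had 9.09, 9.33, 7.77 and 7.55 in neurons, against 4.93, 4.93, 4.70 and 4.70 in microglia, 6.75, 6.13, 6.04 and 4.87 in astrocytes and 5.24, 5.14, 4.93 and 5.25 in oligodendrocyte cultures. Replicates 1 and 2 were higher than replicates 3 and 4 within the neuronal group, and all 4 exceeded the other cultures. The difference from the rest was 3.13 ± 0.32 (8.78-fold, adjusted p = 5.63e-07), and that for microglia minus astrocytes was -1.13 ± 0.39 (adjusted p = 0.0318), a call that ended when any of 5 single arrays was left out, microglial replicate 4 among them. Endothelial markers averaged 3.53 to 3.76 on the neuronal arrays, all 4 of them below the array median. The adjacent gene Cadm3, a cell adhesion molecule of neurons, averaged 8.44 ± 0.50 in neurons, 6.25 ± 0.24 in microglia, 7.97 ± 0.79 in astrocytes and 6.55 ± 0.35 in oligodendrocyte cultures (SD, n = 4).

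Astrocyte cultures were the source of Cxcl12. It had 9.33, 10.30, 10.44 and 8.88 in astrocytes, against 4.74, 5.27, 6.60 and 4.96 in microglia, 7.23, 4.57, 4.34 and 7.45 in oligodendrocyte cultures and 7.94, 7.96, 6.47 and 6.44 in neurons. No other array reached the astrocytes. The oligodendrocyte cultures split into replicates 1 and 4 at 7.23 and 7.45 and replicates 2 and 3 at 4.57 and 4.34, and neuronal replicates 1 and 2 lay above replicates 3 and 4. The mean of the 5 fibroblast markers moved with the oligodendrocytic split, raised mainly by Col1a2 and Col3a1. It was 5.25 and 5.38 in replicates 1 and 4 and 3.97 and 4.15 in replicates 2 and 3. The collagen gene Col1a2 was at 7.27 and 7.44 and at 3.95 and 4.93 there. Col3a1 was at 7.46 and 7.52 and at 4.54 and 4.31. Ogn lay near or below the array median on all 4 arrays, at 4.57 to 5.31, and Dcn and Lum lay below it. Astrocyte markers averaged 9.33 in oligodendrocytic replicate 1 and 6.65 to 7.42 in the others of its group. Among astrocytes, replicate 4 had the highest fibroblast markers (8.47) and the lowest Cxcl12 (8.88). The part of such cells in the Cxcl12 level was not tested. Cxcl12 was 11.9-fold higher in astrocytes than in the mean of the rest (3.57 ± 0.57, adjusted p = 0.00011), and the nearest culture was the neuronal one, at 2.54 ± 0.70 for astrocytes minus neurons (adjusted p = 0.00713), 1.90 without astrocytic replicates 2 and 3, where that call ended. Microglia minus neurons was -1.81 ± 0.70 (adjusted p = 0.0411), and this call ended without microglial replicate 1, 2 or 4 or neuronal replicate 1 or 2. All 3 probe sets of the gene were highest in astrocytes, but on the other 2 the neuronal means were 4.18 and 4.30, below the array medians, and with the mean of all probe sets microglia minus neurons was -0.86.

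Cxcr4, the signalling receptor of Cxcl12, was high in microglia and astrocytes. It had 10.41, 9.63, 9.86 and 9.50 in microglia, 9.90, 9.23, 9.28 and 8.81 in astrocytes, 7.14, 6.97, 7.00 and 6.63 in oligodendrocyte cultures and 5.86, 6.33, 5.16 and 4.89 in neurons. The first 2 groups overlapped (0.54 ± 0.30 for microglia minus astrocytes, adjusted p = 0.168), and the other 2 lay below them in this order without overlap. Microglia exceeded oligodendrocyte cultures by 2.92 ± 0.30 (7.55-fold, adjusted p = 5.71e-06), astrocytes exceeded neurons by 3.75 ± 0.30 (13.4-fold, adjusted p = 4.67e-08) and oligodendrocyte cultures exceeded neurons by 1.37 ± 0.30 (adjusted p = 0.00136). The 3 probe sets of the gene gave the same order of the 4 culture means. Astrocytes exceeded oligodendrocyte cultures by 2.37 ± 0.30 in Cxcr4. Macrophage markers averaged less on every astrocytic array than on every oligodendrocytic array, and their part in the Cxcr4 level was not tested.

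Ackr3 binds Cxcl12 as well and removes it from the surroundings. It had 6.95, 6.85, 6.94 and 7.90 in astrocytes, against 4.62, 4.93, 4.64 and 4.31 in microglia, 6.18, 6.25, 5.70 and 4.79 in oligodendrocyte cultures and 5.45, 5.10, 5.97 and 6.12 in neurons. Every astrocytic array lay above all others, and replicate 4 lay furthest. The difference from the rest was 1.82 ± 0.26 (3.54-fold, adjusted p = 4.08e-05). Microglia had the lowest mean, at -1.11 ± 0.32 against oligodendrocyte cultures and -1.04 ± 0.32 against neurons (adjusted p = 0.0182 and 0.0134), both of which lost their calls without microglial replicate 4, the first also without oligodendrocytic replicate 1 or 2 and the second without neuronal replicate 3 or 4. Astrocyte cultures held the highest level of the ligand and of Ackr3 and shared the highest level of Cxcr4 with microglia.

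Cxcl14, a chemokine of epithelia and brain whose receptor is not settled, had 10.19, 9.69, 9.70 and 6.95 in astrocytes, against 5.47, 5.57, 5.50 and 5.16 in microglia, 7.24, 5.64, 4.71 and 5.51 in oligodendrocyte cultures and 8.01, 8.28, 8.74 and 8.52 in neurons. Astrocytic replicate 4 lay below all neuronal arrays and the other 3 above them. Astrocytes minus neurons was 0.75 ± 0.59 (adjusted p = 0.356), and in the arrays left out in turn Cxcl14 became higher in astrocytes than in each other culture only without replicate 4. Against the mean of the other cultures the difference was 2.61 ± 0.48 for astrocytes (6.09-fold, adjusted p = 0.000412) and 1.61 ± 0.48 for neurons (3.06-fold, adjusted p = 0.011). A second probe set of the gene stayed between 4.44 and 4.76 in all culture means. With the mean of both probe sets these differences were 1.44 and 0.78, and the neuronal call ended.

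**Figure D2:**
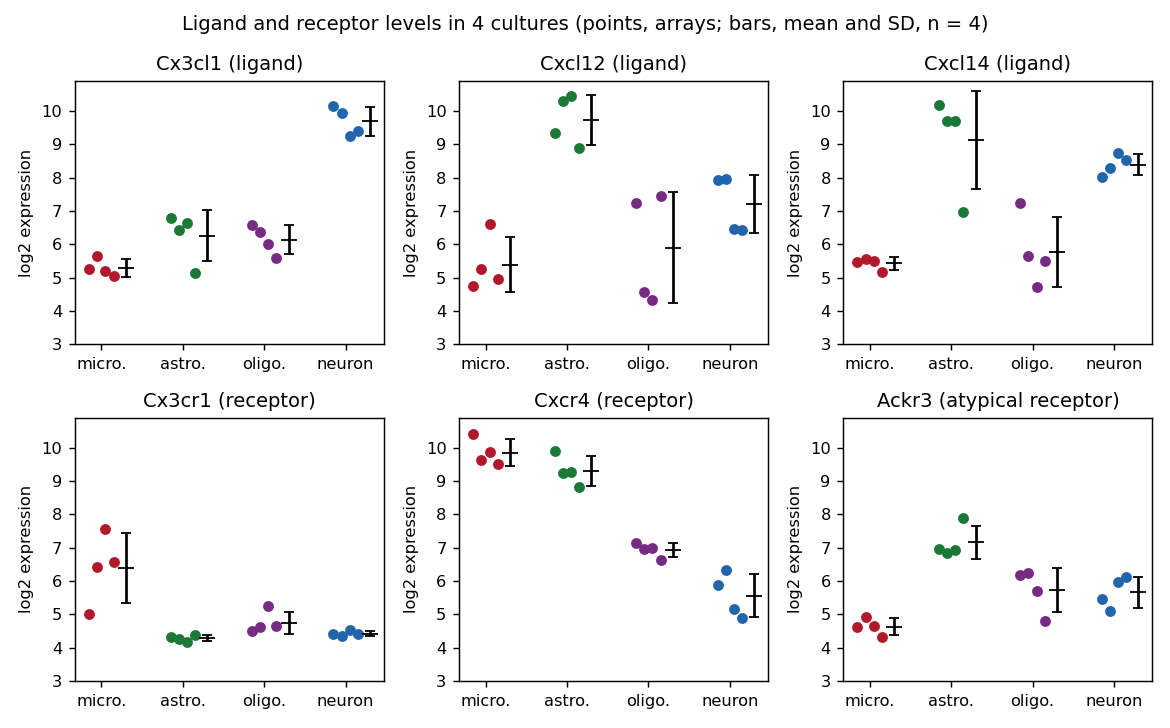
Log2 expression (y axis) of 3 ligands in the upper row and 3 receptors in the lower row, by culture. Points are the 4 arrays of a culture in replicate order and bars are the mean and SD; Cx3cl1 is high in neurons and Cx3cr1 in microglia, Cxcl12 is high in astrocytes, Cxcr4 is high in microglia and astrocytes, and Ackr3 is highest in astrocytes.

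The macrophage chemokines Ccl9 and Cxcl16 were higher in microglia than in each other culture, and Ccl6 was higher than in the mean of the rest. Ccl9, a ligand of Ccr1 in mouse, had 5.57, 5.69, 6.32 and 5.08 in microglia, against 3.29, 3.51, 3.65 and 3.58 in astrocytes, 3.48, 3.66, 4.30 and 3.89 in oligodendrocyte cultures and 3.36, 3.40, 3.41 and 3.24 in neurons. No other array reached the microglia. It was at least 4.28-fold higher in microglia than in the mean of the rest (2.10 ± 0.17, adjusted p = 1.61e-07) and 1.83 ± 0.21 above oligodendrocyte cultures (adjusted p = 1.91e-05). Its levels in the other cultures all lay below the array median.

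Cxcl16, a transmembrane ligand of Cxcr6 that also takes up oxidised lipoprotein, had 10.02, 10.32, 10.78 and 11.20 in microglia, against 7.99, 8.84, 8.69 and 8.0 in astrocytes, 8.04, 9.45, 9.88 and 9.21 in oligodendrocyte cultures and 4.40, 4.57, 5.03 and 4.82 in neurons. Every microglial array exceeded every other, and the neuronal arrays lay apart at the low end. Microglia minus oligodendrocyte cultures was 1.44 ± 0.35 (2.71-fold, adjusted p = 0.00614), and astrocytes exceeded neurons by 3.67 ± 0.35 (at least 12.8-fold, adjusted p = 3.3e-07). Astrocytic replicates 1 and 4, at the level of neurons in the macrophage markers (4.75 and 4.57), had 7.99 and 8.0, and the part of macrophage RNA in the astrocytic level was not tested.

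Ccl6, a rodent macrophage chemokine, had 12.61, 11.35, 12.24 and 11.42 in microglia, against 5.21, 9.24, 9.39 and 4.23 in astrocytes, 7.45, 9.32, 11.22 and 10.98 in oligodendrocyte cultures and 4.05, 4.09, 4.12 and 4.20 in neurons. All microglial arrays lay above the rest. The astrocyte arrays with high Ccl6 were replicates 2 and 3, the same that carried macrophage markers, and oligodendrocytic replicate 1, with the lowest macrophage markers of its group (8.85), had the lowest Ccl6; the part of macrophage RNA in these levels was not tested. Microglia exceeded the mean of the rest by 4.94 ± 0.85 (30.8-fold, adjusted p = 0.000208) and neurons by 7.79 ± 1.04 (at least 221-fold, adjusted p = 1.1e-05), while microglia minus oligodendrocyte cultures, at 2.16 ± 1.04, was not called (adjusted p = 0.141). Astrocytes minus neurons was 2.90 ± 1.04 (adjusted p = 0.0321). It became 0.61 without astrocytic replicates 2 and 3, which ended the call, as did leaving out either of them or any single neuronal array and fitting the 8 arrays of both cultures alone.

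Ccl3 and Ccl4, which attract monocytes and T cells, were shared by microglial and oligodendrocyte cultures. Ccl3 had 11.12, 10.51, 10.55 and 10.65 in microglia, 9.45, 10.14, 12.12 and 11.14 in oligodendrocyte cultures, 5.12, 6.36, 6.13 and 5.26 in astrocytes and 4.84, 4.57, 5.08 and 5.30 in neurons. Ccl4 had 8.99, 7.56, 7.58 and 9.77 in microglia, 8.84, 9.14, 11.34 and 10.54 in oligodendrocyte cultures, 4.16, 5.26, 5.43 and 4.80 in astrocytes and 4.74, 4.76, 4.98 and 4.38 in neurons. The first 2 groups overlapped in both genes and lay above all astrocytic and neuronal arrays. Microglia minus oligodendrocyte cultures was close to 0 for Ccl3 (10.71 ± 0.28 in microglia and 10.71 ± 1.17 in oligodendrocyte cultures, SD, n = 4, adjusted p = 0.996) and -1.49 ± 0.55 for Ccl4 (adjusted p = 0.0569). Astrocytes minus oligodendrocyte cultures was -4.99 ± 0.44 for Ccl3 and -5.05 ± 0.55 for Ccl4 (adjusted p = 4.53e-07 and 3.59e-06). Ccl5, Ccl9, Ccl6, Ccl3 and Ccl4 are neighbours in this order in GRCr8, and Ccl5 stood out in no culture (means from 4.19 to 4.95).

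Ccl2, Ccl7, Cxcl1 and Ccl20, known to be induced in activated glia, were lower in microglia than in oligodendrocyte cultures. Microglia minus oligodendrocyte cultures had 4 members higher (Ccl9, Cx3cr1, Cxcl16 and Cxcr4, against 4.29% of probe sets) and 5 lower (Ccl2, Ccl7, Cxcl1, Ccl20 and Ackr3, against 6.27%). All 10 macrophage markers had a positive difference there, 7 of them called, from 0.53 ± 0.46 for Itgam to 3.86 ± 0.27 for Trem2. The differences of the 4 lower ligands had the other sign, and the part of macrophage RNA or of other cells in their levels was not tested. The count of lower members ranged from 4 to 8 when single arrays were left out and was 8 without oligodendrocytic replicate 2.

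**Figure D3:**
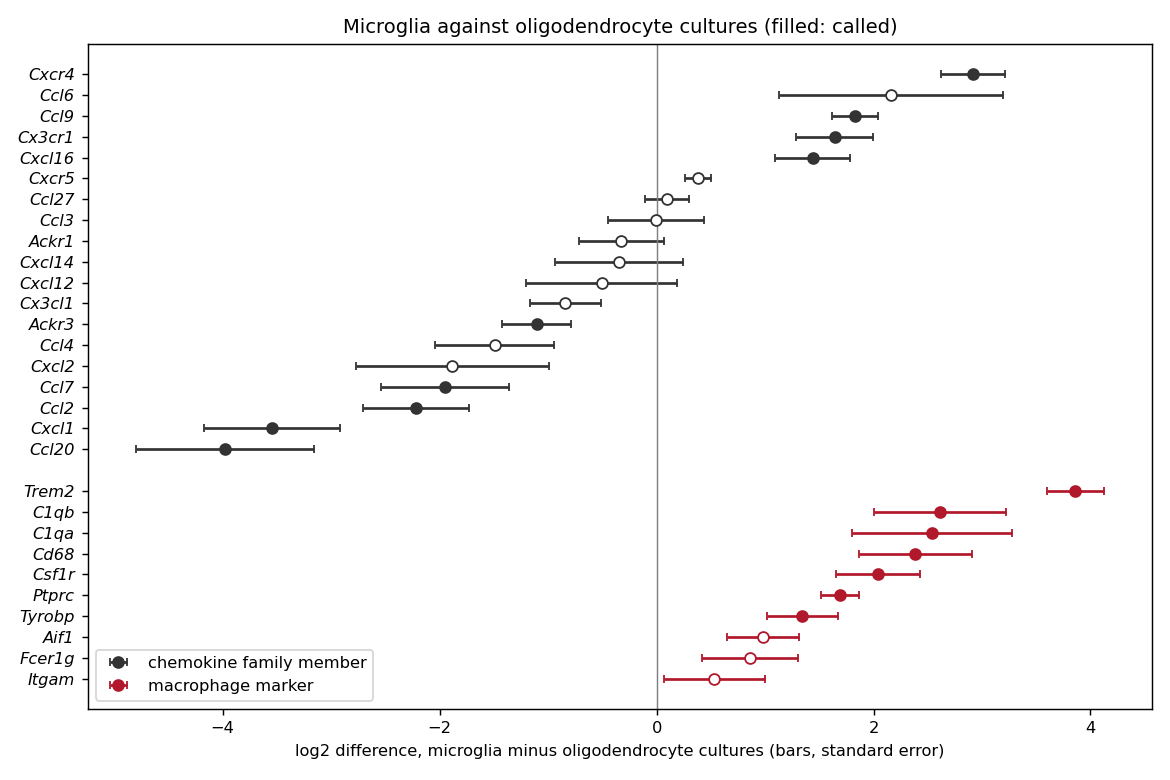
Log2 difference between microglia and oligodendrocyte cultures (x axis) for the 19 members described by array, above, and for 10 macrophage markers, below. Points are limma estimates, bars are standard errors and filled points were called; Ccl20, Cxcl1, Ccl2 and Ccl7 lie left of 0, lower in microglia, while every macrophage marker lies right of 0.

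Ccl2, which recruits monocytes through Ccr2, had 10.05, 8.46, 8.02 and 9.14 in microglia, against 11.20, 10.27, 11.47 and 11.60 in oligodendrocyte cultures. It had 9.24, 10.83, 10.96 and 11.34 in astrocytes, against 4.93, 4.62, 4.69 and 5.89 in neurons. Oligodendrocyte arrays all lay above microglial arrays, astrocytes overlapped both, and neurons lay apart. The differences were -2.22 ± 0.49 for microglia minus oligodendrocyte cultures (adjusted p = 0.00327), -1.68 ± 0.49 for microglia minus astrocytes (adjusted p = 0.0131, not called without astrocytic replicates 2 and 3, at -1.38) and 5.56 ± 0.49 for astrocytes minus neurons (at least 47.1-fold, adjusted p = 1.43e-07). Astrocytic replicate 4, with the fewest macrophage transcripts of its group (4.57), had the most Ccl2 of the astrocyte arrays. On this array fibroblast markers averaged 8.47, against 6.42 to 6.53 on the other astrocytic arrays, raised by Col1a2 and Col3a1 only. Pericyte and smooth muscle markers averaged 8.43 there, against 7.48 to 7.80 on the other astrocytic arrays. Il6 was at 8.98 in replicate 4, and the part of these genes or their cells in the Ccl2 level was not tested.

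Ccl7, a relative of Ccl2 that lies next to it and shares Ccr2, followed a like order. It had 7.86, 6.46, 5.61 and 7.93 in microglia, against 8.71, 8.10, 8.99 and 9.88 in oligodendrocyte cultures. It had 6.93, 9.27, 9.50 and 9.45 in astrocytes, against 3.97, 4.16, 3.80 and 4.25 in neurons. Oligodendrocyte arrays again lay above every microglial array, and astrocytic replicate 1 lay well below the other 3. The difference was -1.96 ± 0.59 for microglia minus oligodendrocyte cultures (adjusted p = 0.0226, lost without microglial replicate 2 or 3 or oligodendrocytic replicate 4), -1.82 ± 0.59 for microglia minus astrocytes (adjusted p = 0.0233, lost without microglial replicate 2 or 3 or astrocytic replicate 2, 3 or 4) and 4.74 ± 0.59 for astrocytes minus neurons (at least 26.8-fold, adjusted p = 6.28e-06). Ccl11, the eosinophil chemokine on the other side of Ccl7, was below the median on all 16 arrays.

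Cxcl1 and Cxcl2 act on Cxcr2 and draw neutrophils. Cxcl1 had 7.38, 6.05, 5.78 and 7.01 in microglia, against 10.23, 8.79, 10.69 and 10.69 in oligodendrocyte cultures. It had 6.58, 9.18, 9.30 and 8.84 in astrocytes, against 4.86, 4.32, 5.82 and 6.31 in neurons. Oligodendrocyte arrays lay above all microglial arrays, and astrocytic replicate 1 fell among the microglia. The difference was -3.54 ± 0.62 for microglia minus oligodendrocyte cultures (adjusted p = 0.000629) and -1.92 ± 0.62 for microglia minus astrocytes (adjusted p = 0.0237), the second of which was -1.16 and not called without astrocytic replicates 2 and 3, and also lost its call without either of them or microglial replicate 2 or 3. Astrocytes minus neurons was 3.15 ± 0.62 (8.89-fold, adjusted p = 0.000582).

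Cxcl2, the neighbour of Cxcl1, had 5.37, 6.44, 10.68 and 9.27 in oligodendrocyte cultures, against 7.70, 6.19, 5.04 and 5.30 in microglia, 3.24, 4.16, 4.63 and 3.76 in astrocytes and 3.35, 3.37, 3.69 and 3.38 in neurons. Replicates 3 and 4 carried the high level of the oligodendrocyte group, and replicates 1 and 2 overlapped the microglia. Replicates 3 and 4 also had more of the 2 granulocyte markers measured (means of 4.17 and 5.04, against 3.38 and 3.38 in replicates 1 and 2) and of the 4 border macrophage markers (5.33 and 5.29, against 4.25 and 4.32). Of these 6 markers, S100a9, Lyve1, Cd163 and F13a1 lay below the array median on all 4 arrays. S100a8 lay above it in replicate 4 only (6.08) and was at 4.32 in replicate 3, the array with the most Cxcl2. Mrc1 was at 9.12 and 9.45 in replicates 3 and 4 and at 6.09 and 6.53 in replicates 1 and 2. The part of such cells in the Cxcl2 level was not tested. The difference from the rest was 3.46 ± 0.73 for oligodendrocyte cultures (adjusted p = 0.00185), and -1.88 ± 0.89 for microglia minus oligodendrocyte cultures was not called (adjusted p = 0.136). Cxcl2 lay below every array median in all astrocyte cultures, at 3.95 on average.

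Ccl20, which acts on Ccr6 and is known for drawing lymphocytes to epithelia, had 4.33, 4.12, 4.85 and 4.68 in microglia, against 9.78, 9.58, 6.11 and 8.43 in oligodendrocyte cultures. It had 4.82, 6.03, 6.17 and 5.31 in astrocytes, against 5.16, 4.99, 8.06 and 8.39 in neurons. The neuronal cultures split into replicates 3 and 4, near the oligodendrocyte cultures, and replicates 1 and 2, near the microglia. Oligodendrocytic replicate 3, which had the highest Ccl3, Ccl4 and Cxcl2, had the lowest Ccl20 of its group. Microglia minus oligodendrocyte cultures was -3.98 ± 0.82 (at least 15.8-fold lower in microglia, adjusted p = 0.00207) and astrocytes minus oligodendrocyte cultures -2.89 ± 0.82 (adjusted p = 0.012). Microglia minus neurons, at -2.15 ± 0.82 (adjusted p = 0.0393), lost its call under 8 alternatives, among them leaving out any single microglial array.

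**Figure D4:**
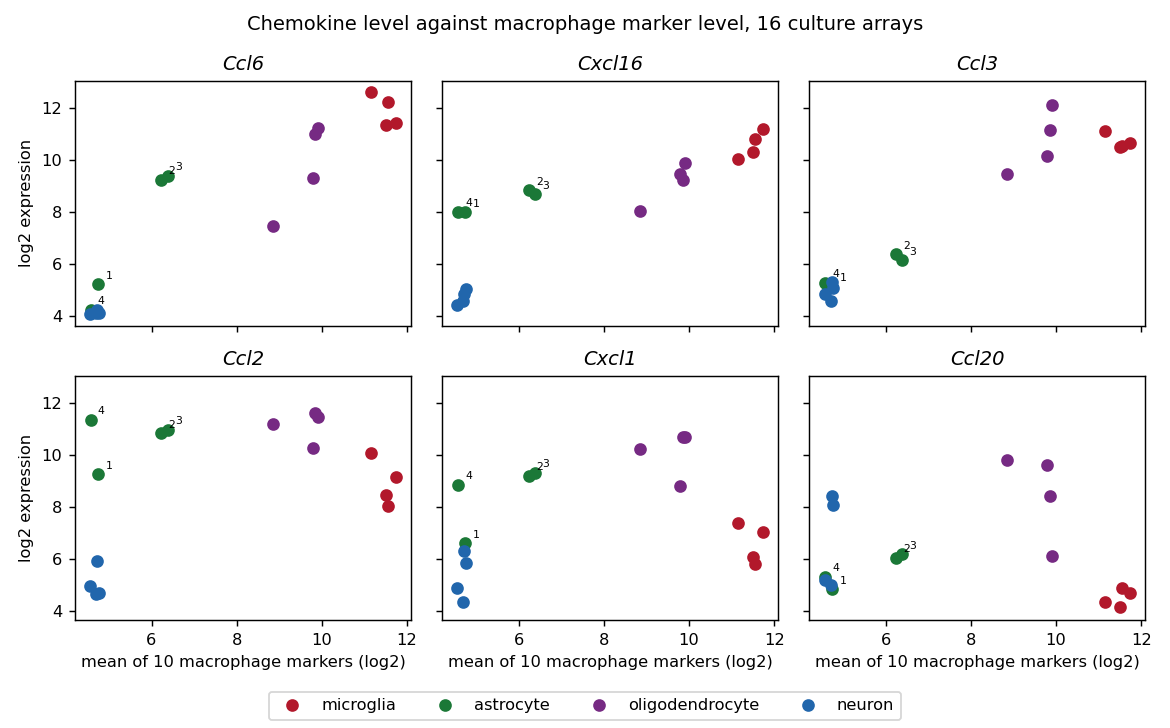
Log2 expression of 6 ligands (y axis) against the mean log2 level of 10 macrophage markers (x axis) on the 16 culture arrays, coloured by culture; the digits number the astrocyte replicates. Ccl6 is high on astrocyte arrays 2 and 3, which have the macrophage markers, and Ccl2 is high on all 4 astrocyte arrays, while Ccl2, Cxcl1 and Ccl20 are lower in microglia than in most oligodendrocyte cultures.

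The promoters of these induced ligands were read for motifs, because several are textbook targets of the transcription factor NF-kappaB. RefSeq promoter sequences of the GRCr8 build were given for 35 of the 45 members, and the 250 bases before each start were searched on both strands for the kappaB consensus, for a core of the interferon response element (GAAA, any 2 bases, GAAA) and for TATAAA. The kappaB consensus was found in 9 of 35 members (25.7%) and in 6.33% of all 33469 promoters, the interferon core in 2 of 35 (5.71%) and 3.41%, and TATAAA in 10 of 35 (28.6%) and 12.9%. The promoters with the kappaB consensus were those of Ccl7, Ccl9, Ccl20, Ccr3, Cxcl1, Cxcl2, Cxcl6, Cxcl10 and Cxcl11, of which Cxcl1 and Cxcl2 are neighbours and Cxcl10 and Cxcl11 likewise, so these do not count as independent. Matches are letters in a window and were not tested as binding sites. They are printed for 4 genes because they belong to ligands called lower in microglia or neurons, in lower case with the kappaB stretches in capitals, where overlapping matches of both strands run together, and in Cxcl10 also the interferon core near the left end.

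Cxcl1, chr14:17479322-17479571, minus strand: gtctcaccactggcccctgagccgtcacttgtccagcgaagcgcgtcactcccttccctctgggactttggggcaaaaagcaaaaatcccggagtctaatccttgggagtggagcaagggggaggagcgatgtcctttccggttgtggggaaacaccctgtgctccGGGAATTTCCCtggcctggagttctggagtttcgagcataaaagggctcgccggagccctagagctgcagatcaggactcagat

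Cxcl2, chr14:17467256-17467505, minus strand: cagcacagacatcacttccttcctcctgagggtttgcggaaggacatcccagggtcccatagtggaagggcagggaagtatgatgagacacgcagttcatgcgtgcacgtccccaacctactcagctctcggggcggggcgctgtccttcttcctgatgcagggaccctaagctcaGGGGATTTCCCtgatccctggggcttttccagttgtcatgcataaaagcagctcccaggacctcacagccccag

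Ccl7, chr10:67513845-67514094, plus strand: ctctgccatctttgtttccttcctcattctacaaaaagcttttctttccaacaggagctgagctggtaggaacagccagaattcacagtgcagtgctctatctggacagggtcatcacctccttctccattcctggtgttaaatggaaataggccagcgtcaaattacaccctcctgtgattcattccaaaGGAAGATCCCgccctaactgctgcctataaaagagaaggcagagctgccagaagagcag

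Cxcl10, chr14:15988816-15989065, plus strand: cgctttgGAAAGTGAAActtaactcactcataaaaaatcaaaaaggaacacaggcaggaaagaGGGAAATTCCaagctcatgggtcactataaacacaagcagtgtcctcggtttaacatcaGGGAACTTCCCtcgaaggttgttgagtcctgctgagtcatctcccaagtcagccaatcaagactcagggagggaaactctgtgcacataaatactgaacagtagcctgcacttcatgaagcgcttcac

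In Cxcl1 and Cxcl2 the kappaB stretch begins at positions -84 and -74 from the start of the gene, and in Ccl7 it begins at -59, on the opposite strand. Cxcl10 holds kappaB stretches that begin at -187 and -128 and the interferon core at -243. In Ccl20 the match begins at -89 on the opposite strand. The neuronal ligand Cx3cl1 had no kappaB or interferon core match in this window. No entry was used here for Ccl2, Ccl3 and Ccl4.

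Cxcl10 and Cxcl3 passed a pairwise test without reaching the level set for values on every array, and Cxcl13, Cxcl6 and Cxcl11 are added here because of their spread, which was seen before they were chosen. Cxcl10, an interferon-induced ligand of Cxcr3, had 5.00, 6.91, 7.31 and 3.83 in astrocytes, 5.73, 4.51, 7.04 and 5.51 in oligodendrocyte cultures, 4.02, 4.63, 3.94 and 4.18 in microglia and 3.80, 3.69, 3.62 and 3.68 in neurons. Astrocytic replicates 2 and 3 were the high ones, and neurons were uniformly low: astrocytes minus neurons was 2.06 ± 0.63 (at least 4.18-fold, adjusted p = 0.0133), 0.72 and not called without astrocytic replicates 2 and 3, the arrays with macrophage markers, and also lost without either of them, and oligodendrocyte cultures minus neurons was 2.00 ± 0.63 (adjusted p = 0.0172), lost without oligodendrocytic replicate 3. Cxcl3, a Cxcr2 ligand, had 8.33 and 8.53 in oligodendrocytic replicates 3 and 4, the replicates highest in Cxcl2, and lay between 6.02 and 6.69 on every other culture array, and 2 of its 5 probe sets were flat. Its call for oligodendrocyte cultures against the mean of the rest (1.01) ended under 16 alternatives, among them leaving out microglial replicate 4.

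Cxcl13, a ligand of Cxcr5 that attracts B cells, had 3.63, 4.78, 5.62 and 10.59 in microglia, against 6.09, 9.25, 3.67 and 4.36 in oligodendrocyte cultures, 3.38, 3.50, 3.52 and 3.66 in astrocytes and 3.85, 3.64, 4.19 and 3.73 in neurons. Microglial replicate 4 and oligodendrocytic replicate 2 stood far above the rest of their groups, and no comparison was called. The high array of microglia is the one whose description reads as a mixture. Its neuron markers averaged 5.35, against 9.45 to 10.74 on the mixture arrays. In the mixtures, Cxcl13 had 7.06 and 6.46 in NAO and NAOM replicate 1, whose oligodendrocytic parent was replicate 2, against 3.65 and 3.98 in NAO and NAOM replicate 2, whose parent was replicate 4. Cxcl6, another neutrophil chemokine, reached 6.90 and 6.84 in astrocytic replicates 2 and 3. It had 6.67 and 8.24 in oligodendrocytic replicates 1 and 4. These had the higher mean of fibroblast markers in their group, raised mainly by Col1a2 and Col3a1. On all other culture arrays it was at 4.73 or lower. Astrocytic replicate 4, with the highest fibroblast markers of all culture arrays (8.47), was the array at 4.73, and the part of such cells in the Cxcl6 level was not tested. Cxcl11 reached 6.71 in oligodendrocytic replicate 3, the array with the second highest Cxcl10, and 4.98 or lower elsewhere.

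Of the 12 receptors, those of the induced ligands were low in all cultures. Ccr2 averaged 3.55 to 3.86, Ccr1 3.60 to 3.88, Ccr3 3.37 to 3.99, Ccr6 3.98 to 4.37, Cxcr2 3.76 to 3.83, Cxcr1 3.94 to 4.42, Cxcr3 3.76 to 4.42, Ccr4 3.56 to 3.60 and Ccr10 4.46 to 4.55, each below the array median on all 16 arrays, and these 9 were called in no pairwise comparison. A low value on an array shows a low signal of the probe set, and the receptor may be present below that level. Cxcr5, the receptor of Cxcl13, was flat, with 7.59, 7.37, 7.86 and 7.58 in microglia, 7.13, 7.14, 7.27 and 7.51 in astrocytes, 7.19, 7.11, 7.42 and 7.14 in oligodendrocyte cultures and 7.05, 7.26, 7.34 and 7.22 in neurons. In Cxcr5 the microglial arrays lay just above the neuronal ones and the other groups overlapped, no comparison was called, and its second probe set lay between 3.59 and 3.73, so the 2 probe sets do not give one level for the gene. Cxcr5 overlaps the end of Bcl9l in GRCr8, and Bcl9l was also flat, at 6.51 to 6.93. Ackr2 and Ackr4, which clear inflammatory and homing chemokines, stayed below the median on all arrays.

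Among the other ligands without a call were the lymphoid homing chemokines Ccl19 and Ccl21 (means of 4.70 to 4.99 and 4.33 to 4.57), the lymphocyte chemokines Xcl1 and Cxcl9 (3.84 to 3.99 and 3.56 to 3.79), the mucosal Ccl28 (3.88 to 4.51) and the eosinophil chemokines Ccl11 and Ccl24 (3.23 to 3.37 and 3.68 to 3.81). All 7 lay below the median on every array.

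Genes that act beside chemokines but fall outside the symbol rule were set against the same cultures. Of 6 relatives, Pf4 (a platelet and macrophage chemokine, 5.39 ± 0.56), Ccrl2 (a chemerin-binding receptor, 1.84 ± 0.32) and Cmklr1 (the signalling chemerin receptor, 1.47 ± 0.15) were higher in microglia than in the mean of the rest and Rarres2, which encodes chemerin itself, was lower (-1.52 ± 0.14). Rarres2 was higher in astrocytes by 4.16 ± 0.14 (adjusted p = 1.67e-11), while Cmklr1 was higher in microglia. The astrocytes in the mean of the rest set the lower value of Rarres2 in microglia. It had 8.84 to 9.27 in astrocytes, 4.62 to 5.10 in microglia, 4.72 to 5.36 in oligodendrocyte cultures and 4.55 to 5.15 in neurons. Microglia were not called lower in Rarres2 than oligodendrocyte cultures or neurons. Pf4, like Ccl6, was higher in astrocytic replicates 2 and 3 (6.79 and 7.09) than in replicates 1 and 4 (4.92 and 5.33). Of 16 measured genes of receptor signalling and leukocyte movement, 11 were higher and 0 lower in microglia (6.30% and 8.95% of probe sets), the largest being those of Rgs1, which quenches receptor signalling (4.26 ± 0.32), the GTPase Rac2 (3.71 ± 0.28), the leukocyte integrin Itgb2 (3.49 ± 0.27) and the exchange factor Vav1 (3.45 ± 0.18), and 8 were higher in oligodendrocyte cultures (5.40%). In astrocytes 0 were higher and 11 lower (8.14% and 7.55%), and in neurons 1 was higher (Gnb1, a G protein beta subunit, 1.55 ± 0.22) and 8 lower (11.8% and 10.7%).

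The proteases Adam10 and Adam17 release Cx3cl1 and Cxcl16 from the membrane. Adam17 was higher in microglia than in the mean of the rest (2.33 ± 0.17, adjusted p = 4.9e-08) and lower in neurons (-3.60 ± 0.17, adjusted p = 1.14e-10), with 5.44, 5.46, 6.11 and 6.04 in neurons, the culture with the most Cx3cl1. Adam10, at 0.60 ± 0.24 for microglia, was not called. Of 13 measured inducers and regulators of chemokine genes, 12 were lower in neurons, all but Il6, the largest being Nfkbiz, a cofactor of NF-kappaB (-3.93 ± 0.35), Il1b (-3.60 ± 0.48) and the interferon regulatory factors Irf7 (-3.32 ± 0.74) and Irf8 (-2.95 ± 0.26), beside 10.7% of probe sets. In microglia 6 were higher (6.30% of probe sets) and in oligodendrocyte cultures 5 (5.40%). Il1b, a strong inducer of Ccl2, Cxcl1 and Ccl20, had 8.0, 7.77, 8.11 and 10.25 in microglia, against 9.44, 10.67, 12.80 and 11.03 in oligodendrocyte cultures, and was the 1 inducer lower in microglia in that comparison (-2.45 ± 0.58, adjusted p = 0.00553), whereas Irf8, a macrophage transcription factor, was higher (3.02 ± 0.32). Of the 13, 11 were not called there, beside 6.27% of probe sets lower and 4.29% higher. The part of Il1b in the ligand levels was not tested. In astrocytes Il1b was below every array median, and Il6 and Irf1 were higher than in the mean of the rest (2.63 ± 0.54 and 1.83 ± 0.19). Il6 differed widely between the astrocyte arrays, at 4.22, 5.85, 6.46 and 8.98, the first of these below the array median.

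In the RNA mixtures the neuronal members followed the neuronal fraction. The slope over NA1, NA2 and NA3, in log2 units per unit of neuronal fraction, was called upward for 3 members, Ccl27 (2.54 ± 0.23, adjusted p = 0.00404), Cx3cl1 (2.42 ± 0.25, adjusted p = 0.00409) and Ackr1 (2.14 ± 0.38, adjusted p = 0.0149, lost without NA3 replicate 2), beside 9.32% of probe sets. It was called downward for 2, Cxcl16 (-2.85 ± 0.42, adjusted p = 0.00793) and Ackr3 (-2.21 ± 0.40, adjusted p = 0.0158), beside 5.01%. Cx3cl1 had 8.56 and 8.56 in NA1, 9.30 and 9.38 in NA2 and 9.72 and 9.80 in NA3, so the steps between fractions were larger than the gap between replicates.

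Ccl2 had 8.71 and 11.11 in NA1, 8.14 and 10.37 in NA2 and 7.24 and 9.18 in NA3. Within each replicate it fell with the neuronal fraction, and replicate 2, whose astrocytic parent was replicate 4, lay above replicate 1, whose astrocytic parent was replicate 1. Fibroblast markers differed likewise, at 6.17 and 8.47 in NA1. With the replicate number as a block, which the labels tie to shared parents, 4 members rose and 7 fell (12.5% and 11.7% of probe sets): Ccl3 joined those that rose, and Ccl2 (-3.40 ± 0.31, adjusted p = 0.00101), Ccl7, Cxcl1, Cxcl12 and Cxcr4 joined those that fell. The rise of Ccl3 lay near background, at 4.25 to 5.37 beside array medians of 5.33 to 5.39. Its neuronal parents (4.84 and 4.57) were lower than its astrocytic parents (5.12 and 5.26), so the stated fractions do not give that rise. Without NA3 replicate 1 or 2 the unblocked count of falling members was 1.

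Macrophage chemokines were higher in NAO, where oligodendrocytic RNA replaced part of the astrocytic RNA, than in NA2. Ccl3 had 8.28 and 9.06 in NAO, against 4.60 and 5.04 in NA2 (3.85 ± 0.42, at least 14.4-fold, adjusted p = 0.00742). Ccl6 had 6.99 and 8.93 in NAO, against 4.54 and 4.08 in NA2 (3.65 ± 0.61, adjusted p = 0.0427), and Ccl4 had 6.88 and 8.68 in NAO, against 4.45 and 4.74 in NA2 (3.18 ± 0.54, adjusted p = 0.0469). These were the 3 members called higher, beside 0.902% of probe sets, and 0 were lower (0.197%). The fit behind these calls left out the shared parents. With the block, which pairs them, 5 were higher, beside 1.85%, and 0 lower, beside 1.62%. The added ones were Ccl20 (2.24 ± 0.33, adjusted p = 0.0114) and Cxcl1 (1.24 ± 0.18, adjusted p = 0.0105), and without NAO replicate 2 or either NA2 replicate 0 were called. The call of Ccl4 also ended with quantile normalization and with a trended and robust variance, and that of Ccl6 with the second of these. The macrophage markers averaged 7.92 and 7.90 in NAO, against 4.62 and 4.56 in NA2, and their part in these differences was not tested.

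NAOM minus NAO, which adds microglial RNA at 0.1 and shares the NAO arrays with the comparison above, gave 0 called members in limma, with or without the block, beside 0.0419% and 0 of probe sets (0.119% with the block). At an unadjusted p under 0.05 there were 2, both higher: Ccl9 (0.37 ± 0.10, adjusted p = 0.884) and Ccl27 (0.45 ± 0.12, limma unadjusted p = 0.00747). A share of all probe sets at this threshold is not given, so the 2 cannot be weighed. For Ccl27 the stated parents and fractions give 7.91 and 7.85 in NAO and 7.90 and 7.84 in NAOM. The stated fractions therefore do not give the rise of Ccl27. Ccl9 had 3.74 and 3.73 in NAOM, against 3.35 and 3.38 in NAO. Ccl6 had 8.50 and 9.60 in NAOM, against 6.99 and 8.93 in NAO, higher in both replicates (1.09 ± 0.61, unadjusted p = 0.112).

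The mixture values were set against the fraction-weighted sum of the linear values of their stated parent arrays. Over the 19 members described by array, observed minus expected had a median of -0.13 on the log2 scale, with means per gene from -0.38 for Ccl7 to 0.15 for Cx3cl1, and the median over all probe sets was also -0.13. With the means of the 4 arrays of each culture in place of the stated parents, the median over the members was -0.47 and that over all probe sets -0.13, and Ccl6 was at -2.01. Ccl20, which like Ccl6 differed widely between replicate cultures, was at -0.29 with the stated parents and -1.51 with the culture means.

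**Figure D5:**
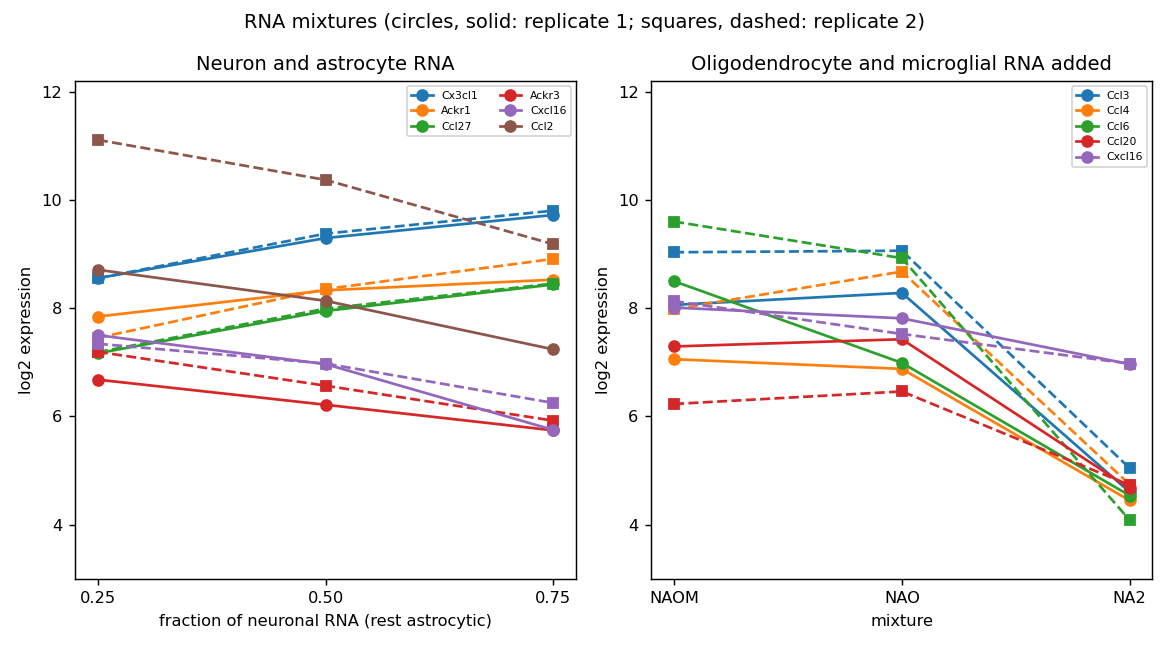
Log2 expression (y axis) in RNA mixtures, on the left against the neuronal RNA fraction in NA1, NA2 and NA3, and on the right by mixture in NAOM, NAO and NA2. Lines join the mixtures of replicate 1 (circles, solid) and replicate 2 (squares, dashed); Cx3cl1, Ackr1 and Ccl27 climb with the neuronal fraction while Ccl2, Ackr3 and Cxcl16 fall, and Ccl3, Ccl4 and Ccl6 are higher in NAO than in NA2.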

How the data were processed

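RNA of the cultures and mixtures was measured on Affymetrix arrays, 26 in number. The file holds log2 values that the authors made with RMA of the affy package, per the submitters' processing notes, and no versions are given in the sources used here. RMA models and removes background, quantile-normalises and summarises probes, which compresses low values. The table held 31099 probe sets. The 57 controls were left out and 31042 tested without a filter. Symbols came from the platform's annotation, and the gene identifiers of 20758 of 20826 probe sets with 1 symbol matched GRCr8; 436 named several genes and 9780 none. Groups followed titles and cell types. limma 3.58.1 (lmFit, eBayes, R 4.3.3) was fitted with 1 mean per culture over 16 arrays, 1 mean per mixture over 10 arrays, and an intercept and slope over the 6 arrays of NA1, NA2 and NA3, with Benjamini-Hochberg adjustment over all probe sets. Culture calls needed an adjusted p under 0.05 and a log2 difference of at least 1, mixture calls the adjusted p alone. Values on every array are given for members higher in 1 culture than in each other, or with a culture mean at least 2 log2 units above the highest array median; others appear as ranges and counts unless stated. Fits were tested on simulated data. Members and lists were chosen with earlier results of these data known. The labels state biological replicates without saying how independent they were, so p-values measure the spread between these arrays. Same-numbered residuals correlated between 0.381 and 0.873 in mixtures (20 pairs), whose labels name shared parents, and between -0.107 and 0.178 in cultures (24 pairs, 5 over 0.1), so numbers pair the mixtures and not the cultures. Alternatives were a replicate block, quantile normalization of the fitted arrays, removal of the dimmest 25% of probe sets, a trended and robust variance, the mean of all probe sets of a gene, no minimum difference, a fit on compared cultures alone, leaving out each array, other parents for mixtures and, added after seeing the data, leaving out astrocytic replicates 2 and 3 together. Promoter sequences were RefSeq's (GRCr8). Python 3.11.15, pandas 2.3.3, numpy 2.4.6 and matplotlib 3.10.9 were also used.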

Additional observations from a re-analysis of the deposited data

Results flagged for a closer look

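In 76 groups of 4 culture arrays (19 members in 4 cultures), the gap between the highest or lowest array and its neighbour, as a share of the range, passed Dixon's critical value for 4 values in 5. Chance alone flags about 1 group in 20. Astrocytic replicates 4 and 1 account for 4 of the 5. In replicate 4, Ackr3 was at 7.90 and at 6.85 to 6.95 in the other astrocyte cultures (gap share 0.9006), and Cxcl14 was at 6.95 and at 9.69 to 10.19 in the others (0.8461). Fibroblast markers averaged 8.47 on this array and 6.42 to 6.53 on the other astrocytic arrays, raised by Col1a2 and Col3a1 only. Pericyte and smooth muscle markers averaged 8.43 there and 7.48 to 7.80 on the other astrocytic arrays. The part of fibroblasts or of pericytes and smooth muscle in these values was not tested. In replicate 1, Ccl7 was at 6.93 and at 9.27 to 9.50 in the others (0.9109), and Cxcl1 was at 6.58 and at 8.84 to 9.30 in the others (0.8293). Cxcl2 in neuronal replicate 3 was at 3.69 and at 3.35 to 3.38 in the others (0.9306), all below the array median.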

How the results depend on the processing

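Of 2783 values of 132 called gene comparisons under the alternatives, 2675 kept their direction and call, 108 lost the call and 0 reversed; 25 of the 132 lost it at least once, most often Cxcl3 in oligodendrocyte cultures against the mean of the rest. Counts moved by over 1.5 times as follows. With no minimum difference, 13 members were higher in microglia than in the mean of the rest, 5 were higher in microglia than in each other culture, 5 were lower in astrocytes than in the mean of the rest, and 7 were higher for microglia minus oligodendrocyte cultures. With the replicate block, 5 were higher in NAO than in NA2 and 7 fell with the neuronal fraction; in the cultures, whose numbers do not pair arrays, the block ended only the calls of Ccl20 and Cxcl12 for microglia minus neurons. Without the dimmest 25% of probe sets 2 members were higher in oligodendrocyte cultures than in each other culture. Without astrocytic replicates 2 and 3, chosen after seeing the data, 1 was, 4 were lower in astrocytes than in the rest, and 1 was higher in astrocytes than in each other culture. With culture means as parents the median mixture difference was -0.47.

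Leaving out 1 array each, members higher than each other culture numbered 0 to 3 in oligodendrocyte and 2 to 3 in astrocyte cultures, those lower for microglia minus oligodendrocyte cultures 4 to 8, those higher in NAO than in NA2 0 to 3, and those falling with the neuronal fraction 1 to 3. A background correction other than RMA and the slide or scan as a block could not be run on the summarised values, and signal near background limits the receptors most.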
